A study of Mus musculus with 15 samples.

Results

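The enzymes that build fatty acids from acetyl-CoA, lengthen them and place double bonds in them, with their associated protein Thrsp, were followed in the liver and lung of mice fed phytosterols, the plant sterols that resemble cholesterol. The group held 10 genes (Acly, Me1, Acaca, Fasn, Elovl5, Elovl6, Scd1, Fads1, Fads2 and Thrsp), taken by gene symbol from the 54532 genes of the liver and lung count tables. All 10 passed the filter on low counts in both tissues, where 13195 genes were tested in the liver and 16717 in the lung. RNA of whole tissue from wild type male C57BL/6J mice, an inbred laboratory strain, was sequenced as 1 library per mouse and tissue. The CS group ate the control diet (4 livers, 3 lungs) and the PS group a diet with 2% phytosterols (5 livers, 3 lungs). The labels give every mouse an age of 28 weeks, whereas the authors describe 28 weeks as the length of feeding. Lung replicates 1 to 3 of the CS group came from the same mice as liver CS replicates 1 to 3, and lung PS replicates 1, 2 and 3 from those of liver PS replicates 1, 3 and 5.

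Acetyl-CoA for fatty acid synthesis is made in the cytosol by ATP citrate lyase (Acly), and malic enzyme (Me1) supplies NADPH. Acetyl-CoA carboxylase (Acaca) forms malonyl-CoA, from which fatty acid synthase (Fasn) builds palmitate. Elovl6 lengthens palmitate, and Scd1 introduces the first double bond of monounsaturated fatty acids. Fads1 and Fads2 desaturate, and Elovl5 elongates, the polyunsaturated fatty acids that come from the diet. Thrsp (Spot 14) is a small nuclear protein of lipogenic tissues that responds to thyroid hormone and carbohydrate. Liver transcription of most of these genes follows SREBP-1c, which insulin and the oxysterol receptor LXR raise, and in the lung alveolar type II cells make fatty acids for surfactant.

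The p-values measure the spread between these mice only. Total counts ranged from 14410117 to 17625179 per liver and from 17934930 to 19396057 per lung. The tissue labels fitted their markers, since 6 hepatocyte genes summed to between 80540 and 123500 CPM (counts scaled to a common library size) in the livers and to between 10.53 and 139.3 CPM in the lungs, the highest in lung CS replicate 1. Liver CS replicate 2 stood apart. It had the lowest level of the 9 livers for 6 of the 10 genes and the highest B and plasma cell marker sum (277.1 CPM, against 32.15 to 117.7 in the other livers). The lungs held unequal amounts of fat cell RNA. Adipoq, which defines fat cells, stood at 13.65, 19.38 and 2.01 CPM in the CS lungs, at 12.78 CPM in PS replicate 1 and at 0 in PS replicates 2 and 3. In whole tissue, fewer cells of a type and less RNA per cell cannot be told apart.

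In the liver, the question was whether the PS diet changed the expression of these genes. Fasn and Thrsp were higher in every PS liver than in any CS liver, 1.99-fold and 3.54-fold by the fitted fold change, but neither passed the adjustment over all genes in edgeR's quasi-likelihood test. For the other 8 genes the diets overlapped. Log2 fold changes (PS against CS) were above 0 for 8 of the 10 genes, with a median of 0.23, whereas 46.1% of all tested genes were above 0 and their median was -0.03. Without CS replicate 2 the median was 0.10. At an unadjusted p of at most 0.05, 2 of the 10 genes were higher and 0 lower, against 3.96% and 3.58% of all genes. After adjustment there were 0, against 0.00758% of all genes (1 gene). DESeq2's Wald test called both Fasn and Thrsp, among 110 genes called higher and 53 called lower of 13195.

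**Figure D1:**
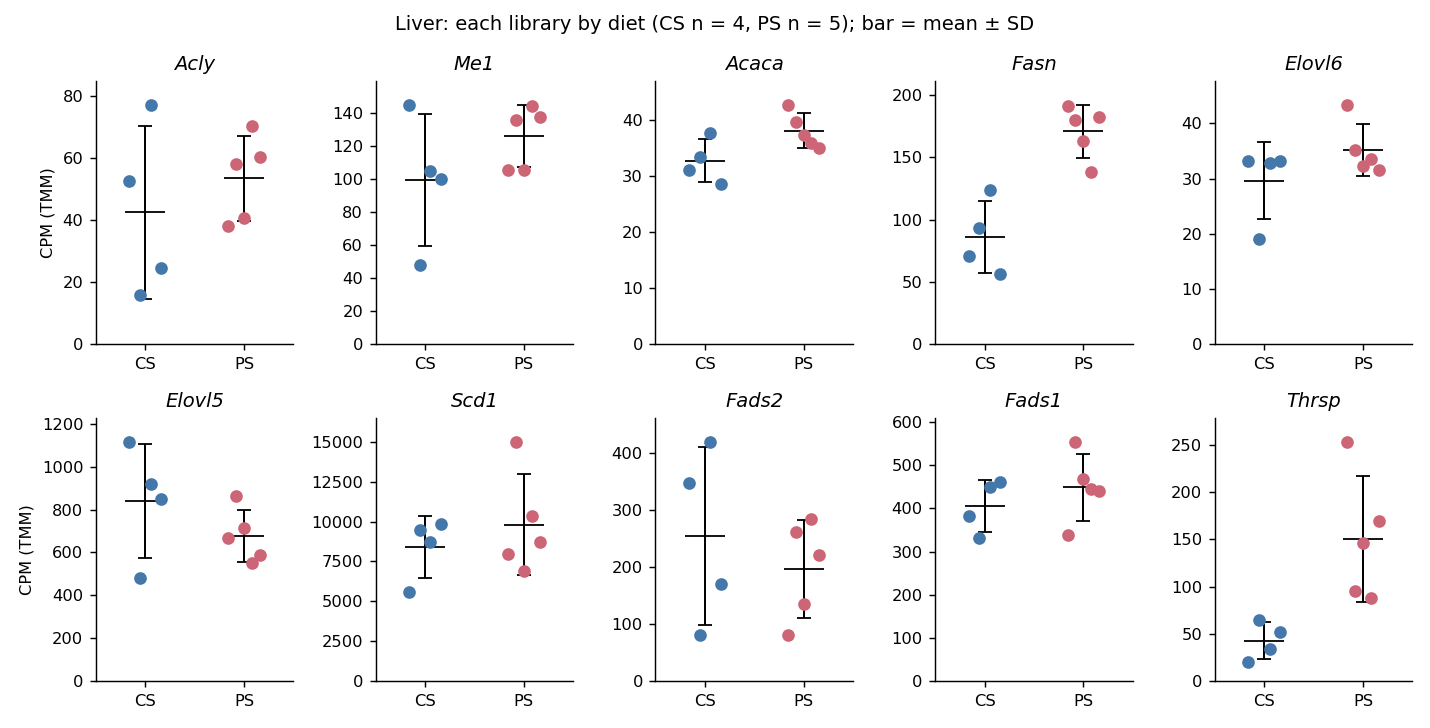
Level of each gene in the liver in CPM (linear axes from 0), 1 point per library in replicate order from left to right, CS in blue (n = 4) and PS in red (n = 5), with the mean ± SD in black. The diets are separate for Fasn and Thrsp and overlap for the other 8, and the lowest CS point for Acly, Me1, Elovl6, Elovl5, Fads2 and Fads1 is replicate 2.

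Fasn, the synthase itself (ENSMUSG00000025153, chr11:120805846-120824547 on mm10, minus strand), stood at 70.68, 93.52, 123.5 and 56.47 CPM in CS livers 1 to 4. In PS livers 1 to 5 it stood at 191.1, 180.3, 163.1, 137.8 and 182.2 CPM. The lowest PS liver thus lay above the highest CS liver, and the groups did not overlap, as for 2.1% of all genes in this direction. The mean was 86.05 ± 29.27 CPM (SD, n = 4) on CS and 170.9 ± 21.1 CPM (SD, n = 5) on PS. The log2 fold change was 0.99 ± 0.23 (SE), with unadjusted p = 0.00131 and adjusted p = 0.227. Without the CS liver that stood apart it was 1.03, with adjusted p = 0.0943, and over all 17 alternatives the adjusted p ran from 0.00938 to 1.

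The promoter of Fasn is printed because this gene had the smallest p of the enzymes of synthesis proper in the liver, and its window lies outside the gene model. RefSeq start sites (GRCm38.p6) were held for 8 of the 10 genes. The 250 bases before the start site span chr11:120824548-120824797 and are read on the minus strand. Capitals mark the CCAAT box, CCAAT on either strand, and the nearest 2 matches to the start site overlap.
Fasn: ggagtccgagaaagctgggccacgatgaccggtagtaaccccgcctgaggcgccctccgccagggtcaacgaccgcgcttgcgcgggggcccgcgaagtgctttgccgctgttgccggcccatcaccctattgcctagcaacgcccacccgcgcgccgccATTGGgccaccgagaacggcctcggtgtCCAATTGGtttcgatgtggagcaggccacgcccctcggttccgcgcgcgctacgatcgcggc
The window held 3 CCAAT matches, which begin 90, 62 and 59 bases before the start site. A CCAAT match was present in 33.8% of the 32851 promoter windows of this length. None of the motifs CACGTG (an E-box, in 6.0% of windows), TCACNCCAC (a sterol response element, in 1.1%) and GGGCGG (a GC box, in 32.7%), all sought on both strands, was found in these letters. The same search of the Thrsp window, which overlaps the gene model, found 2 CCAAT matches and none of the other motifs.

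Thrsp (ENSMUSG00000035686, chr7:97412938-97417730, minus strand) stood at 20.42, 64.75, 33.37 and 51.41 CPM in the CS livers. The PS livers held 253.7, 95.09, 146.6, 87.76 and 169.1 CPM. Each PS liver lay above each CS liver, and the PS livers spread from 87.76 to 253.7 CPM. This was the largest difference among the 10 genes, with a log2 fold change of 1.82 ± 0.40 (SE), unadjusted p = 0.000678 and adjusted p = 0.175. Leaving out CS replicate 2 gave 2.10 with adjusted p = 0.0462, the only replicate whose omission brought Thrsp under the threshold. Thrsp ranked 50 by p and Fasn 74 among the 13195 genes.

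Acly and Me1, which supply acetyl-CoA and NADPH, varied widely among CS livers. Acly stood at 52.47, 15.77, 77.08 and 24.71 CPM on CS and at 38.17, 58.03, 40.7, 70.4 and 60.21 CPM on PS. The PS values all lay within the CS range, and the log2 fold change was 0.33 (95% confidence interval -0.54 to 1.21, unadjusted p = 0.424). Me1 ranged from 47.71 to 144.6 CPM on CS and from 105.2 to 144 CPM on PS, with a log2 fold change of 0.34 (-0.26 to 0.94). Acaca, which commits carbon to synthesis, was the least variable, at 31.06, 33.49, 37.67 and 28.68 CPM on CS and 42.73, 39.73, 37.32, 35.96 and 35.01 CPM on PS. Only the highest CS value exceeded any PS value, and the log2 fold change was 0.22 (-0.11 to 0.55, unadjusted p = 0.166). Acaca shares near-identical sequence with the pseudogene Gm5182 (99.2% over 6118 bases), whose counts reached at most 12.3% of those of Acaca.

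Among the elongases, Elovl6 stood at 33.27, 19.14, 32.85 and 33.23 CPM in CS livers and at 43.34, 35.18, 32.3, 33.49 and 31.5 CPM in PS livers. Apart from CS replicate 2 at 19.14 CPM and PS replicate 1 at 43.34 CPM, the 7 remaining livers lay between 31.5 and 35.18 CPM. Elovl5 ranged from 479.9 to 1117 CPM on CS and from 550.8 to 861.2 CPM on PS, with a log2 fold change of -0.31 (-0.85 to 0.23). Without CS replicate 2, which held 479.9 CPM, Elovl5 differed by -0.51 with an unadjusted p of 0.0213 and an adjusted p of 0.27.

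The desaturases showed no detectable difference between the diets in the liver. Scd1, the most abundant of the 10 messages, ran from 5603 to 9844 CPM on CS and from 6918 to 15010 CPM on PS, with a log2 fold change of 0.22 (-0.36 to 0.80). Fads1 lay between 332.3 and 460.5 CPM on CS and between 338.3 and 555 CPM on PS, with a log2 fold change of 0.15 (-0.27 to 0.56). Fads2 spread the most, at 347.6, 80.18, 420.7 and 171 CPM on CS and at 81.43, 262.2, 136.1, 283.9 and 221.5 CPM on PS. Its coefficient of variation among CS livers was 61.5%, and the interval of its log2 fold change, -1.40 to 0.66, lay on both sides of 0. These intervals do not show that the diets acted alike on the desaturases. Without CS replicate 2, the log2 fold change was 0.06 for Acly, 0.11 for Me1, 0.08 for Elovl6, -0.67 for Fads2 and 0.06 for Fads1, and none of these passed at an unadjusted p of at most 0.05.

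Of 47 other genes of the pathway in 7 lists, 42 were tested in the liver. At an unadjusted p of at most 0.05, 7 were higher and 5 lower, against 3.96% and 3.58% of all genes, and 0 passed the adjustment. Without CS replicate 2 the adjustment left 3 higher and 1 lower (11 and 7 before it), without CS replicate 3 it left 2 higher, and 4 higher and 1 lower passed in DESeq2's Wald test. Over all genes, 43 were higher and 22 lower without CS replicate 2 (14.1% before adjustment, both directions together). The counts were 5 and 0 without CS replicate 3 and 110 and 53 in the Wald test. All 7 genes of substrate supply had log2 fold changes above 0, with pyruvate kinase (Pklr) at 1.32 (unadjusted p = 0.00188) and acetyl-CoA synthetase (Acss2) at 0.47 (unadjusted p = 0.0236). Among the regulators, Insig1, which retains SREBP precursors in the endoplasmic reticulum, had a log2 fold change of 1.33 ± 0.21 (unadjusted p = 3.82e-05, adjusted p = 0.0974). Mid1ip1, the paralog of Thrsp, had 1.61 ± 0.34 (unadjusted p = 0.000624), and Srebf1, which encodes SREBP-1, had 0.79 (unadjusted p = 0.0223). Scap, the escort of SREBP, and Insig2, a relative of Insig1, had -0.56 and -0.88. Among the genes of glycerolipid use, Lpin1 had 2.69, Dgat2 0.50 and Agpat2 -0.34, all at an unadjusted p of at most 0.05. On the lower side stood the elongase Elovl3, at 849.8, 190.2, 651.4 and 882.7 CPM on CS and 178.1, 179.8, 106.4, 360.9 and 287.4 CPM on PS (log2 fold change -1.53, unadjusted p = 0.00487). Acacb, the carboxylase isoform of mitochondria, had -0.70 (unadjusted p = 0.0434).

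Genes that follow the time of day and the fed state were read beside the 10 genes, and none of them passed the adjustment in the main liver fit. Over 17 alternatives, Arntl and Nr1d1 passed it in 3 each, Ciart and Pdk4 in 2 each and the others in at most 1. The shares of all genes at an unadjusted p of at most 0.05 were 3.96% higher and 3.58% lower. Of 11 clock genes, 8 were higher and 2 lower at an unadjusted p of at most 0.05. Their summed level was 179 to 381 CPM in CS livers, highest in replicate 2, and 348.1 to 667.9 CPM in PS livers. Of 9 genes of the fasting response, 4 were lower at the same level (Pdk4, Fgf21, Igfbp1 and G6pc) and 0 higher. Of 5 genes of cholesterol synthesis and uptake, 4 were higher and 0 lower. The 5 macrophage markers, all with log2 fold changes below 0, summed to 110.7 to 173 CPM on CS and 40.41 to 125.3 CPM on PS, and 1 of them (Clec4f) had an unadjusted p of at most 0.05. The 4 endothelium markers, also all below 0, summed to 40.08 to 55.07 CPM and 19.7 to 52.58 CPM. The time of day at collection and the length of any fast are not given in the sources used here, and their part and that of these cells in the Fasn and Thrsp difference was not tested.

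In the lung, the same comparison gave differences mostly on the lower side. Acly and Fads2 fell to 0.479 and 0.459 of their CS level, Scd1 was lower in every PS lung without passing the adjustment, and Thrsp was the only one of the 10 with a log2 fold change above 0. Log2 fold changes were under 0 for 9 of the 10 genes and above 0 for 1, where 50.4% of all genes were above 0, and the median was -0.27 against 0.01 over all genes. At an adjusted p under 0.05, 2 of the 10 genes were lower and 0 higher, against 4.43% and 4.8% of all genes. Both rest on single libraries. Leaving out CS replicate 1, 2 or 3 or PS replicate 2 left 0 of the 10, with 0 to 25 of all genes lower and 0 to 2 higher. At an unadjusted p of at most 0.05, 4 were lower and 0 higher, against 14.5% and 15.6% of all genes. The diets did not overlap for 4 of the 10 genes, all lower in PS lungs (Acly, Acaca, Scd1 and Fads2), as for 18.8% of all genes, while 17.3% were higher without overlap.

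**Figure D2:**
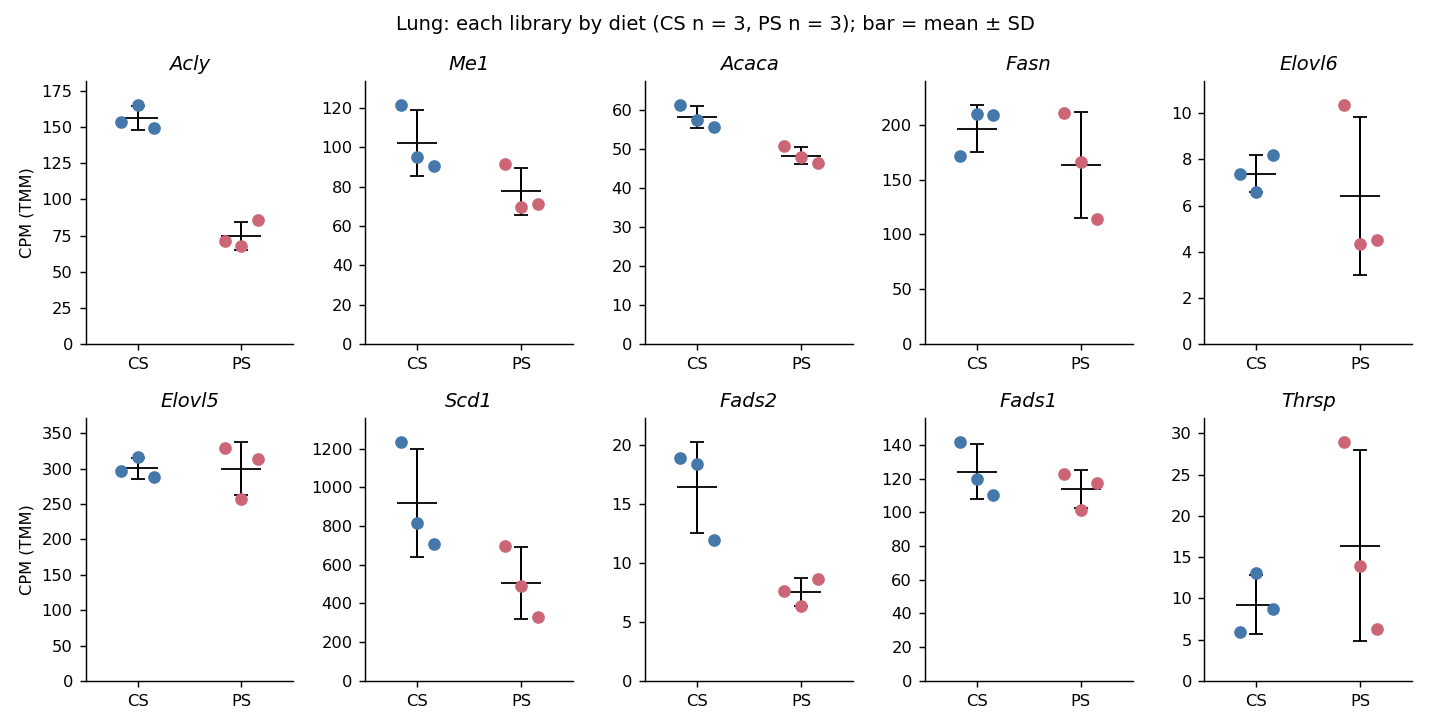
Level of each gene in the lung in CPM (linear axes from 0), 1 point per library in replicate order from left to right, CS in blue (n = 3) and PS in red (n = 3), with the mean ± SD in black. PS lungs lie below all CS lungs for Acly, Acaca, Scd1 and Fads2, and PS replicate 1 is the highest point for Fasn, Elovl6, Elovl5 and Thrsp.

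Acly (ENSMUSG00000020917, chr11:100476353-100528000, minus strand) stood at 153.5, 165.2 and 149.1 CPM in the CS lungs and at 71.18, 67.54 and 85.48 CPM in the PS lungs. The groups were far apart relative to their spread, at 156 ± 8.34 CPM and 74.73 ± 9.48 CPM (SD, n = 3 each). The log2 fold change was -1.06 ± 0.14 (SE), with unadjusted p = 4.24e-05 and adjusted p = 0.0163, and Acly ranked 41 by p among 16717 genes. Leaving out any CS lung or PS replicate 2 raised the adjusted p to between 0.0638 and 0.0703, while the log2 fold change stayed between -1.10 and -0.99.

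The promoter of Acly is printed because Acly had the smallest p of the 10 genes in the lung and its window, too, lies outside the gene model. It spans chr11:100528001-100528250 (GRCm38.p6, RefSeq), read on the minus strand. Capitals mark the GC box, GGGCGG on either strand.
Acly: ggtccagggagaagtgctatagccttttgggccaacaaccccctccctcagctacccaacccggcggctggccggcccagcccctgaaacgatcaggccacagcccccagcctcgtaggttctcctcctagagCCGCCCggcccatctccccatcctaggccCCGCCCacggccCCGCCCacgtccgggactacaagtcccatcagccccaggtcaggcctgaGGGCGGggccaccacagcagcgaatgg
There were 4 GC boxes, beginning 117, 88, 76 and 27 bases before the start site, and no match to the other 3 motifs. The Fads2 window, most of which lies inside the GENCODE gene, held 1 GC box and none of the other motifs.

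Fads2, which carries out the first desaturation of linoleic and alpha-linolenic acid (ENSMUSG00000024665, chr19:10064164-10101503 in the files, minus strand), stood at 18.95, 18.4 and 11.99 CPM on CS. On PS it stood at 7.63, 6.36 and 8.66 CPM. The lowest CS lung was replicate 3, still above all PS lungs. The log2 fold change was -1.12 ± 0.24 (SE, unadjusted p = 0.00112, adjusted p = 0.0326), and it lay between -1.27 and -0.97 over 14 alternatives, in 10 of which the adjusted p was under 0.05. Its neighbor Fads1, which acts later on the same fatty acids, stood at 141.9, 119.9 and 110.3 CPM on CS and at 122.6, 101.3 and 117.6 CPM on PS. The ranges overlapped, and the interval of its log2 fold change, -0.47 to 0.22, excluded a change as large as that estimated for Fads2.

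Scd1 stood at 1236, 816 and 708.2 CPM in CS lungs and at 698.3, 488.5 and 329.9 CPM in PS lungs. All PS lungs lay below all CS lungs, but PS replicate 1 came close to CS replicate 3, and in the deposited FPKM these lungs crossed (146.4 and 145.9). The log2 fold change was -0.86 ± 0.31 (SE, unadjusted p = 0.02, adjusted p = 0.0986). Without PS replicate 1, the PS lung with Adipoq RNA, it was -1.18 with adjusted p = 0.0339. Its paralog Scd2 stood at 715.2, 766.4 and 580.5 CPM on CS and 467.9, 376.7 and 512.9 CPM on PS (log2 fold change -0.60, unadjusted p = 0.0108, adjusted p = 0.0721). Per length, in TPM (counts per base of transcript, scaled to the library), Scd1 made up 42.04% to 66.09% of the sum of Scd1 and Scd2 in the lungs and at least 99.92% in the livers.

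Acaca, Me1 and Fasn had smaller estimated differences than Acly, Fads2 and Scd1, a contrast between genes that was not tested. Acaca stood at 61.25, 57.41 and 55.63 CPM on CS and at 50.71, 47.89 and 46.3 CPM on PS, a small difference without overlap (log2 fold change -0.27, interval -0.56 to 0.03, unadjusted p = 0.0721). Me1 stood at 121.4, 95.19 and 90.26 CPM on CS and at 91.48, 69.78 and 71.35 CPM on PS (log2 fold change -0.40, unadjusted p = 0.045, adjusted p = 0.156), and PS replicate 1 overlapped the CS lungs. Fasn stood at 171.7, 209.4 and 208.4 CPM on CS and at 210.3, 165.8 and 114.3 CPM on PS. The highest and the lowest Fasn values were both in PS lungs, and the log2 fold change was -0.27 (interval -0.76 to 0.23). It was -0.49 without PS replicate 1 (unadjusted p = 0.0377, adjusted p = 0.118) and -0.06 without PS replicate 3.

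For Elovl6 and Thrsp, PS replicate 1 lay above all other lungs. Elovl6 stood at 7.38, 6.58 and 8.20 CPM on CS and at 10.35, 4.35 and 4.53 CPM on PS, with a log2 fold change of -0.21 ± 0.35 (SE). Without PS replicate 1 it was -0.74 (unadjusted p = 0.0152, adjusted p = 0.0677). Elovl5 was at the same level in both groups, 300.6 ± 14.8 and 300.1 ± 38 CPM (SD, n = 3 each), with an interval of -0.36 to 0.35. Thrsp stood at 5.96, 13.11 and 8.68 CPM on CS and at 28.99, 13.96 and 6.24 CPM on PS (log2 fold change 0.82, interval -0.35 to 2.00), and this was 0.12 without PS replicate 1 and 1.21 without PS replicate 3 (unadjusted p = 0.0183, adjusted p = 0.0853).

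PS replicate 1 was also the only PS lung with Adipoq RNA. Fat cells too make these enzymes, and their part in the values of PS replicate 1 was not tested. The 8 white fat cell markers had log2 fold changes below 0 for 7, with a median of -0.91. The exception was Lipe, at 0.66 (adjusted p = 0.0338), which made up the largest part of their sum, with means of 108.1 CPM on CS and 170.9 CPM on PS. In all they summed to 234.6, 301.6 and 134.2 CPM in CS lungs and to 313.2, 174.9 and 211.6 CPM in PS lungs. In PS replicates 2 and 3, 3 of the 8 (Adipoq, Lep and Cfd) were at 0. Brown fat cell markers summed to 13.6, 11.67 and 26.65 CPM in CS lungs, highest in replicate 3, and to 10.83, 4.63 and 6.84 CPM in PS lungs, without overlap, and both tested genes of the 4 (Cidea and Ppargc1a) were lower at an unadjusted p of at most 0.05. Acly stood at 149.1 CPM in CS replicate 3, where Adipoq was 2.01 CPM, and at 71.18 CPM in PS replicate 1, where Adipoq was 12.78 CPM. Alveolar type II markers summed to 20990 to 22080 CPM in CS lungs and 22750 to 35680 CPM in PS lungs, a sum carried by Sftpc (means of 13290 and 23400 CPM). By gene, 3 of these 8 markers had log2 fold changes above 0 and 5 below, with a median of -0.06, and 2 were higher and 2 lower at an unadjusted p of at most 0.05, where 15.6% of all genes were higher and 14.5% lower. The B and plasma cell markers summed to 1974 to 3840 CPM and 4715 to 9674 CPM, with 3 of 5 higher and 1 lower at that level. Heart muscle markers summed to 158.2 to 236.8 CPM in CS lungs and 32.38 to 416.5 CPM in PS lungs, the highest in PS replicate 1. The part of these cells in the lung differences was not tested beyond these values. Of the clock genes in the lung, 8 of 11 were higher and 2 lower at an unadjusted p of at most 0.05, where 15.6% and 14.5% of all genes were. The adjustment left 4 of them higher (4.8% of all genes), and of these Nr1d2 passed it in 10, Nr1d1 in 6 and Per1 and Ciart in 5 of 14 alternatives. All 5 genes of cholesterol synthesis and uptake had log2 fold changes below 0.

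Among the other genes of the pathway in the lung, 43 of 47 were tested. At an unadjusted p of at most 0.05, 4 were higher and 11 lower, against 15.6% and 14.5% of all genes. After adjustment 2 of the 43 passed on each side, a share near that of all genes (4.8% higher and 4.43% lower). Gpam, the first enzyme of glycerolipid synthesis, fell from 44.73, 38.65 and 41.79 CPM to 6.04, 5.30 and 13.13 CPM, a log2 fold change of -2.35 ± 0.32 (adjusted p = 0.0163). Insig1 fell from 73.59, 61.47 and 68.82 CPM to 50.18, 38.35 and 45.91 CPM (log2 fold change -0.60, adjusted p = 0.0457). Tecr, the last enzyme of the elongation cycle, rose by 0.66 (adjusted p = 0.0331) and Dgat1, which completes triacylglycerol, by 0.73 (adjusted p = 0.0473). Fads6 (-0.98, unadjusted p = 0.00467) and Idh1 (-0.56, unadjusted p = 0.00562) had the next smallest unadjusted p on the lower side. Leaving out any CS lung or PS replicate 2 left 0 of these genes past the adjustment. Over 14 alternatives Gpam passed it in 10, Tecr in 9, Insig1 in 6 and Dgat1 in 4.

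**Figure D3:**
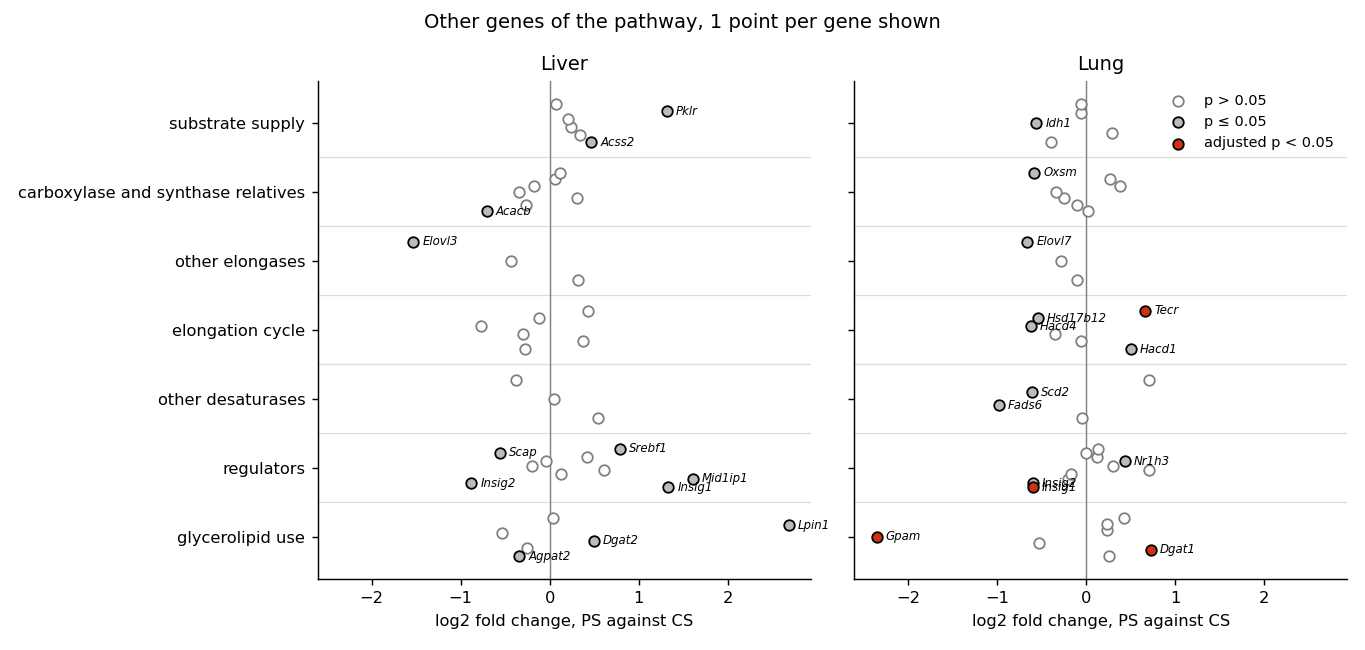
Log2 fold change (PS against CS) of the tested genes of 7 pathway lists in the liver (left) and in the lung (right), 1 point per gene, with 1 tested gene not shown. Grey points have an unadjusted p of at most 0.05 and red points an adjusted p under 0.05. Insig1 lies at 1.33 in the liver and at -0.60 in the lung, and Gpam is the lowest point in the lung at -2.35.

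Whether the diet acted differently in the 2 tissues was tested in 1 model over all 15 libraries, as the lung log2 fold change minus the liver one. The difference was below 0 for 9 of the 10 genes, with a median of -0.78 against 0.00 over all genes. The difference was above 0 for 50.1% of all genes. At an unadjusted p of at most 0.05, 3 were lower (Fasn, Acly and Acaca) and 0 higher, where 5.4% of all genes were lower and 5.54% higher. After adjustment 0 were left, against 0.017% of all genes on the lower and 0.00565% on the higher side. Fasn had the smallest p, with a difference of -1.29 ± 0.36 (SE, unadjusted p = 0.0023, adjusted p = 0.264). Acly differed by -1.44 ± 0.54 (unadjusted p = 0.017) and Acaca by -0.53 ± 0.20 (unadjusted p = 0.019). Scd1 differed by -1.12 (interval -2.26 to 0.02) and Elovl5 was the exception, at 0.27 (-0.52 to 1.07). With the mouse as a block, Fasn differed by -1.19 (unadjusted p = 0.0108), while Acly (unadjusted p = 0.0727) and Acaca (unadjusted p = 0.215) no longer passed and Thrsp did (-1.68, unadjusted p = 0.00488). Of the genes listed beside them, Insig1 passed the adjustment (-1.98 ± 0.29, adjusted p = 0.0296). With the mouse as a block, or without lung CS replicate 2, CS replicate 3 or PS replicate 3, 0 genes of the whole table passed, Insig1 included.

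**Figure D4:**
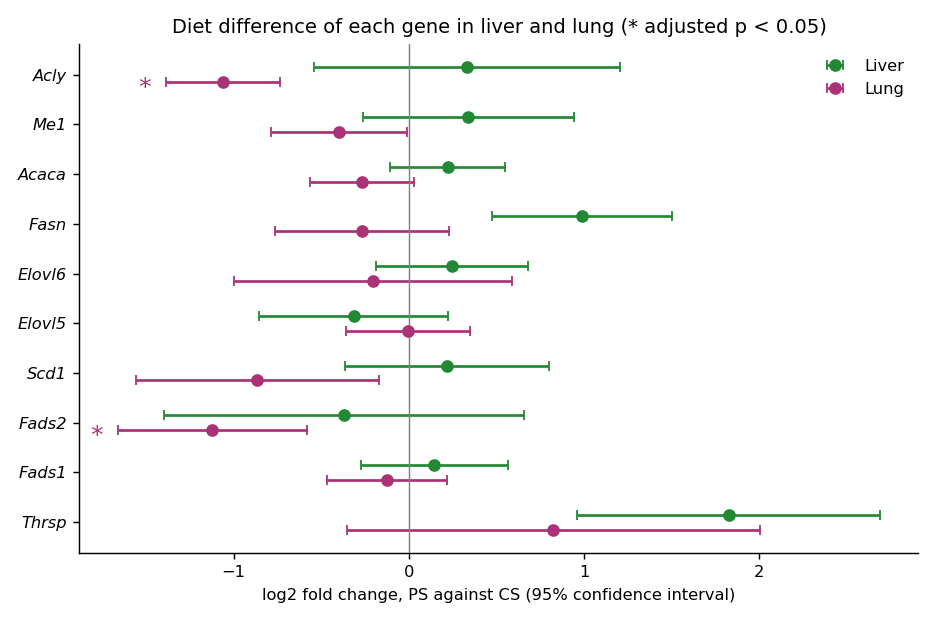
Log2 fold change (PS against CS) of each gene in the liver (green) and in the lung (purple), with 95% confidence intervals. An asterisk marks an adjusted p under 0.05, reached by Acly and Fads2 in the lung, and the liver interval lies wholly above 0 for Fasn and Thrsp.

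Levels were then compared between the tissues. Per length, Scd1 led in both tissues. In CS livers its TPM was 2807 to 4426, above the other 9 genes, followed by Elovl5, Fads2 and Fads1 (means 522.4, 386.4 and 249.8 TPM), whose ranges overlapped. Then, with means of 56.81 down to 4.07 TPM, came Me1, Thrsp, Acly, Fasn, Elovl6 and Acaca, each overlapping its neighbor in this order. On PS, Thrsp moved above Me1 in the liver, at 91.73 to 189 TPM against 44.6 to 90.55 TPM. Scd1 made up 61.39% to 85.1% of the summed TPM of the 10 genes in the livers.

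In CS lungs, Scd1 (311 to 604.9 TPM) and Elovl5 (174 to 216.9 TPM) led without overlapping. Fads1, Acly and Me1 (means 82.84, 68.07 and 61.36 TPM) overlapped one another, and Fasn (37.12 to 46.09 TPM) lay below them. Fads2 lay lower still, at 16.89 to 29.74 TPM. Thrsp and Acaca overlapped, and Elovl6 was the lowest, at 2.46 to 2.72 TPM. In PS lungs Scd1 (154.3 to 256 TPM) and Elovl5 (155.5 to 201.6 TPM) overlapped. Scd1 made up 27.44% to 53.58% of the summed TPM in the lungs. The per-length levels of Fads2 rest on a gene length of 1508 bases in the files, where the exons in GENCODE M21 cover 3295, and those of Fads1 on 3456 against 4812 bases.

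Set against liver on the CS diet, 8 of the 10 genes passed the adjustment as lower in lung and 0 as higher, against 30% and 37% of all genes. Lung and liver did not overlap for 7, as for 28.1% of all genes on the lower side. The exceptions were Acly (log2 fold change 0.50, adjusted p = 0.259) and Fasn (-0.17, adjusted p = 0.579). On the PS diet all 10 were lower, against 30.7% of all genes (38% were higher), and all 10 without overlap, against 29.3%. The medians were -2.97 on CS and -2.99 on PS, and that of all genes was 0.18 on both. The widest gaps on CS were those of Fads2 (-5.32 ± 0.60 SE), Scd1 (-4.55 ± 0.47), Thrsp (-3.55 ± 0.56) and Elovl6 (-3.37 ± 0.32), followed by Fads1 (-3.08 ± 0.24) and Elovl5 (-2.86 ± 0.30). Me1 (-1.33 ± 0.30) and Acaca (-0.53 ± 0.15) differed least among the 8. The call of Acly on PS (log2 fold change -0.93, adjusted p = 0.0398) held in 8 of 20 alternatives only. With the mouse as a block over the 12 libraries of 6 mice its adjusted p was 0.255, with DESeq2's size factors 0.0802, and without 1 of the livers CS replicate 1 and PS replicates 2, 4 and 5 or 1 of the PS lungs it lay between 0.0548 and 0.114.

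The direction of Acaca depended on the scaling on both diets, that of Me1 and Fasn on CS and that of Acly on PS. The 20 most counted genes took 22.8% to 37.2% of the counts in livers and 12.4% to 18.4% in lungs. Scaling by total counts alone, in place of TMM, moved the median of all genes to 1.55 on CS and 1.56 on PS. On that scale Acly, Fasn and Acaca were higher in CS lung than in CS liver (log2 fold change 1.86, 1.20 and 0.84), Me1 was level (0.04), and on PS Acly and Acaca changed sign (0.44 and 0.32). Elovl6, Elovl5, Scd1, Fads2, Fads1 and Thrsp stayed lower in lung on both diets and under TMM, DESeq2's size factors and total counts. Relative to the median of all genes, the values hardly depended on the scaling. A change of scaling shifts all genes nearly alike, and subtracting the median removes that shift, so this is no test of the scaling. The members' median lay at -3.14 on CS under each of the 3 scalings, and Fasn between -0.35 and -0.34, while Acly stood at 0.33, 0.34 and 0.30.

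**Figure D5:**
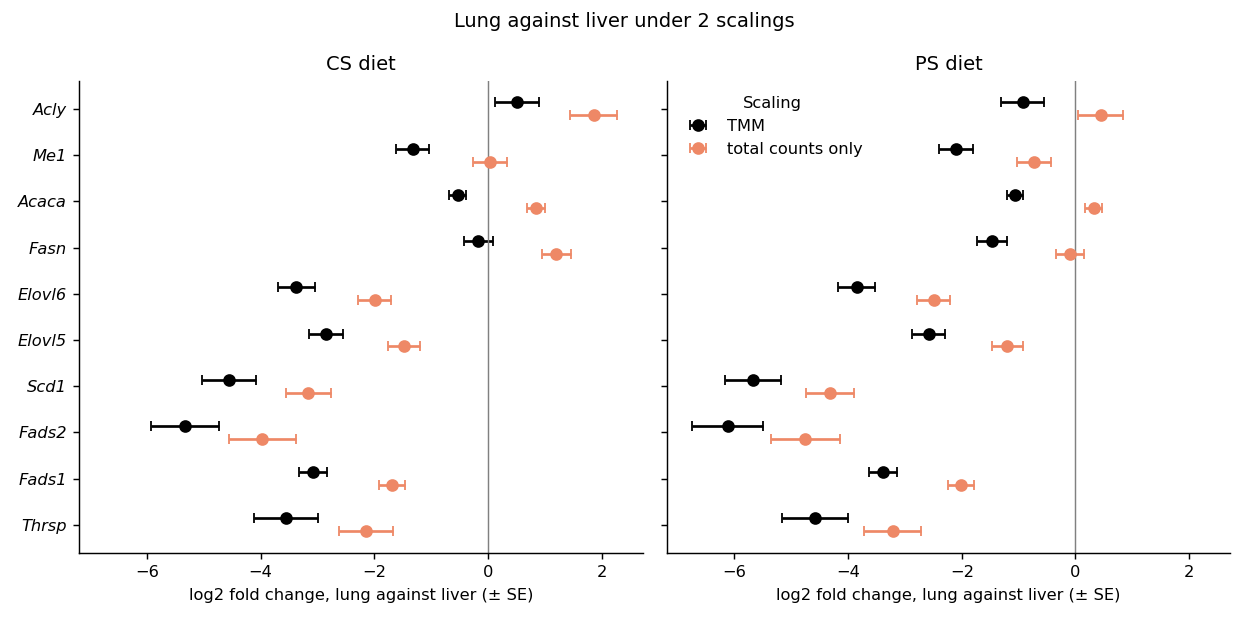
Log2 fold change of lung against liver (± SE) on the CS diet (left) and on the PS diet (right), under TMM scaling in black and total counts alone in orange. The genes from Elovl6 down to Thrsp lie below 0 under both scalings, whereas Acly, Me1, Acaca and Fasn lie nearer to 0. Acaca changes side on both diets, Me1 and Fasn on CS and Acly on PS.

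Scd2 ran opposite to its paralog, 6.43 ± 0.36 higher in lung than in liver on CS on the log2 scale (adjusted p = 2.39e-10). Under TMM, Srebf1 did not pass the test on CS (-0.33, adjusted p = 0.322) and was lower in lung on PS (-1.03, adjusted p = 0.00374). Its direction was not read under total counts alone, a scaling that turned Acaca on PS from -1.07 to 0.32.

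Finally, other genes were ranked by how closely their log2 CPM followed the mean standardized level of the 10 genes across the libraries of a tissue. In the 9 livers, among 7643 genes, the closest were D10Jhu81e (Pearson's r = 0.964), Mccc1 (0.952), Tvp23b (0.939), Aldh2 (0.938) and Spg20 (0.935), and 0.301% of genes reached 0.9. In the 6 lungs, among 11073 genes, they were Tgtp2 (0.996), Gpd2 (0.995), Ifi47 (0.994), Mfsd1 (0.992) and Slc35e3 (0.991), and 3.08% reached 0.9. The libraries of a tissue share their diet groups and their scaling, so these values describe likeness in these libraries alone.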

How the data were processed

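The authors aligned reads with HISAT2 2.0.5 (build mm10) and counted them per gene with featureCounts 1.5.0-p3, per the labels. The deposited counts are not normalized. The deposited FPKM values are counts scaled by gene length and library by the authors. Whether counting used strand is not given in the sources used here.

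Diets were compared within each tissue, and tissues over all 15 libraries, with edgeR 4.0.16 (TMM, default filter, robust quasi-likelihood test, two-sided, R 4.3.3), and p-values were adjusted over all tested genes by the Benjamini-Hochberg method. CPM use TMM sizes within a tissue, and TPM were computed from the counts and the lengths in the files. Confidence intervals are 95% intervals. Each library comes from a separate mouse by the labels within a tissue. The fits were tested on simulated data with 200 changed genes. The 10 genes, the lists and the rule for naming other genes (unadjusted p of at most 0.05 in a diet comparison) were chosen with earlier results of these data known. Alternatives were DESeq2 1.42.0 size factors and Wald test, no filter, limma 3.58.1 on log2(FPKM + 1) and log2(FPKM + 0.1), replicate and mouse blocks, and leaving out each library. GC content removal and total-count scaling were chosen after seeing the data. Mice pair the tissues, as the labels name the same 6 animals, and deviations of the tissues from their group means correlated between -0.0339 and 0.0907. At this depth, counting error is small beside the spread between mice, and the number of mice limits the precision. Some genes of the lists are not reported here.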

Additional observations from a re-analysis of the deposited data

Results flagged for a closer look

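Elovl6 in liver CS replicate 2, at 19.14 CPM, lay far below the 3 other CS livers, by 97% of the group's range. It was the only such gap in 20 sets of livers examined, of which chance flags about 1 in 20. The same library was the lowest of the 9 livers for 6 of the 10 genes.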

How the results depend on the processing

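In the liver, DESeq2's Wald test called 2 of the 10 genes higher (Fasn and Thrsp) where edgeR called 0. Over all 13195 genes the Wald test called 110 higher and 53 lower, and edgeR 1 and 0. Leaving out 1 library gave 0 to 1 higher after adjustment (1 without CS replicate 2, where 43 of all genes were higher and 22 lower). It gave 0 to 1 lower at an unadjusted p of at most 0.05, where 5.2% to 14.1% of all genes passed, both directions together. In the lung, leaving out 1 library gave 0 to 3 lower after adjustment (0 without CS replicate 1, 2 or 3 or PS replicate 2). Over all genes, those omissions left 1, 1, 0 and 2 higher and 22, 25, 0 and 7 lower. The full fit called 802 and 740, and the fit without PS replicate 1 called 1752 and 1197. At an unadjusted p of at most 0.05 the omissions gave 2 to 7 lower and 0 to 1 higher. Of all genes, 21.5% to 35.5% passed that level, both directions together. The median ran from -0.519 to -0.193. Lung log2 fold changes of Elovl6 then ran from -0.74 to 0.0106 and of Elovl5 from -0.0806 to 0.0989, and Elovl5 was 0.12 with the GC content trend removed. For the difference between the tissues' diet effects, the omissions gave 3 to 7 lower at an unadjusted p of at most 0.05. Of all genes, 6.94% to 14.9% passed that level, both directions together. The median ran from -0.985 to -0.529. Between lung and liver, scaling by total counts alone gave 3 higher on CS, where 11815 of all 17696 genes were higher. It gave medians of -1.59 on CS and -1.61 on PS. It also gave log2 fold changes above 0 on CS for Me1 (0.0403), Acaca (0.84) and Fasn (1.20) and on PS for Acly (0.44) and Acaca (0.32). Omissions there gave 0 to 1 higher on CS (6105 to 6730 of all genes) and Fasn from -0.32 to 0.0637. The mouse block gave a median of -2.77 on PS. Replicate numbers within a tissue did not pair the samples (correlations of -0.358 to -0.0295 in the liver and -0.00648 to 0.0988 in the lung). With the replicate block, 2 of the 10 genes were still higher in the liver at an unadjusted p of at most 0.05, both at adjusted p = 1. Of all genes, 3.69% passed that level there, both directions together. In the lung, 3 of the 10 were lower after adjustment with this block, Scd1 added, as were 806 of all 16717 genes. Except where a setting's own construction shows it (fewer libraries, another scaling), the cause of these shifts was not tested. Of the values of single genes under the alternatives, 870 kept their direction and side of the threshold, 21 lost and 8 gained it, and 11 changed sign. Fewer than 6 mice per group limit the precision more than depth does.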
